A study of Mus musculus with 12 samples.

Results

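Notch genes were followed in whole PyMT mammary tumors, as 10 genes found by their symbols among the 21960 genes listed for each tumor. They comprise the ligands Dll1, Dll4, Jag1 and Jag2, the receptors Notch1, Notch2, Notch3 and Notch4, and the target genes Hes1 and Hey1. PyMT tumors arise in female C57BL/6 mice in which the MMTV promoter drives the polyoma middle T oncogene in the mammary epithelium. RNA of 12 whole snap-frozen tumors was sequenced with a stranded total RNA kit (SMARTer), 3 per group. Mice received anti-PD-1 or IgG1 alone, or either antibody with doxorubicin (groups named DOX/anti-PD-1 or DOX/IgG1), where IgG1 is the isotype control antibody and DOX is doxorubicin, a DNA-damaging chemotherapy. In the groups without doxorubicin, treatment began at a tumor diameter of 0.6 cm with 20 mg/kg antibody, and later doses of 10 mg/kg were given until day 18. In the groups with doxorubicin, treatment began at 1 cm and combined 5 mg/kg doxorubicin with 10 mg/kg antibody, once a week for 5 weeks. The labels of all groups give 5 weeks of weekly treatment. A difference between a group with and a group without doxorubicin therefore cannot be told apart from one in starting diameter, first dose of antibody or schedule.

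Notch signaling passes between neighboring cells. A ligand of the Delta or Jagged type on one cell binds a Notch receptor on the next, ADAM proteases and gamma-secretase cut the receptor, and the freed intracellular domain joins the DNA-binding protein RBPJ to switch on genes such as those of the HES and HEY repressors. In the mammary gland the pathway takes part in the choice of luminal cell fate, and in tumor vessels Dll4 and Notch4 belong to endothelial cells and Notch3 to pericytes.

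The markers fitted the tissue label. Epcam, the most abundant of 10 luminal epithelial markers, averaged 729 ± 194 TPM (a length-corrected transcript level; SD, n = 12), and the luminal sums lay between 3153 and 4900.3 TPM in every tumor. The library of DOX/IgG1 replicate 1 stood apart from the others. Its column header carries the added word test, and over all listed genes its highest correlation with any other tumor was r = 0.944, against 0.952 to 0.976 for the other 11 tumors, across genes that are not independent replicates. It held the highest value of Notch1, Dll4 and Hes1 and the lowest value of Jag1 and Hey1 among the 12 tumors. Counts of calls over all genes that changed without it are given both ways. Sequencing depth is not known, since the files used here hold normalized levels, a value of 0 can be a failed estimate, and each group mean rests on 3 tumors. Fewer cells of a type and less RNA per cell cannot be told apart in such bulk samples.

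By mean level over the 12 tumors, the order was Hey1 (118 ± 41.4 TPM, SD, n = 12), Notch1 (96.9 ± 33.3), Dll1 (68.7 ± 22.6), Notch2 (33.2 ± 8.36), Notch3 (25.7 ± 3.70), Hes1 (24.9 ± 11.1), Jag1 (18.5 ± 8.37), Notch4 (9.59 ± 5.21), Jag2 (5.37 ± 2.99) and Dll4 (4.77 ± 2.72). Neighbors in this order were often not separated. Notch3 lay above Hes1 in 7 of 12 tumors and Jag2 above Dll4 in 7 of 12, whereas Dll1 lay above Notch2 in 11 of 12. Notch3 varied least, with a coefficient of variation of 14.4% and a ratio of 1.77 between the highest and the lowest tumor. Dll4 varied most, with 57.0% and a ratio of 11.9. The plot of levels by tumor gives the value of every gene in every tumor.

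**Figure D1:**
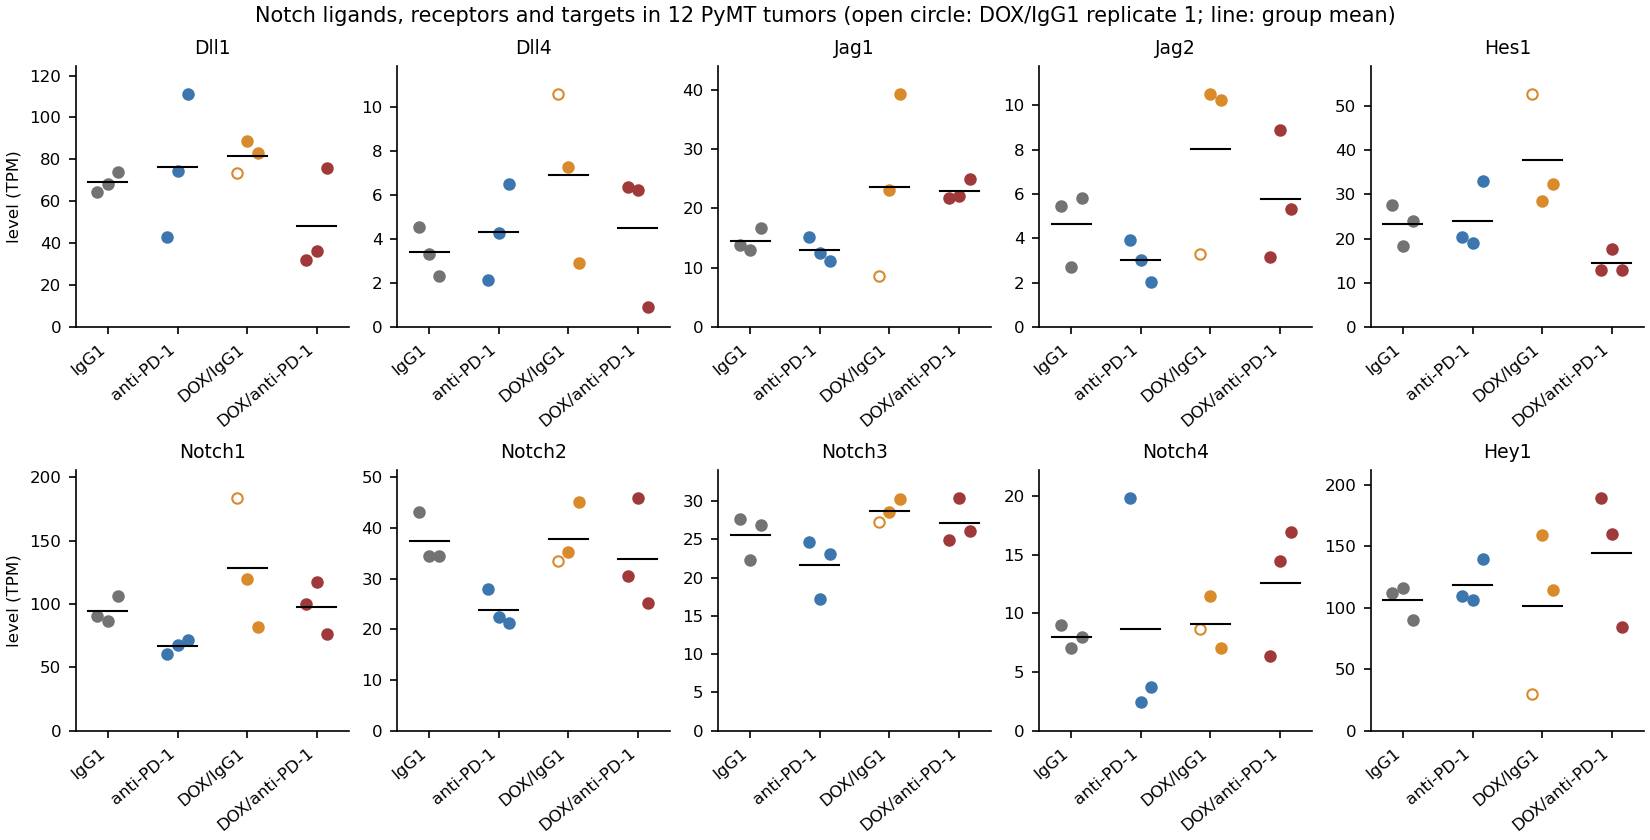
Level of the 10 Notch genes in TPM (y axis, linear, from 0) in each of 12 tumors by treatment group, with a line at each group mean and an open circle for DOX/IgG1 replicate 1. All 3 DOX/anti-PD-1 tumors lie below the other 9 for Hes1 (12.85 to 17.67 TPM against 18.4 TPM or more), and the anti-PD-1 tumors lie below the IgG1 tumors for Notch1 and Notch2.

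Differences were tested with limma on log2(TPM + 1) over all genes with 1 TPM or more in 3 or more tumors, and a gene was called when its adjusted p was below 0.1 and its log2 fold change beyond 1 in either direction. All 10 Notch genes passed the minimum in each of the 7 comparisons, and 0 of them were called in any. Over all genes tested, the share called was 0.036% (5 of 13874) for DOX/IgG1 versus IgG1, 0% for DOX/anti-PD-1 versus anti-PD-1, for anti-PD-1 versus IgG1 and for DOX/anti-PD-1 versus DOX/IgG1, 0.0204% (3 of 14735) for the average over both antibodies of doxorubicin against no doxorubicin, 0% for the average of anti-PD-1 against IgG1 and 0.00679% (1 of 14735) for their interaction. Without DOX/IgG1 replicate 1 the counts over all genes were 113 for DOX/IgG1 versus IgG1, 3 for DOX/anti-PD-1 versus DOX/IgG1, 211 for the doxorubicin average and 0 for the interaction, again with 0 Notch genes. An unadjusted limma p below 0.05 was found for 0 Notch genes in DOX/IgG1 versus IgG1, against 7.73% of all genes (5.03% higher and 2.7% lower), and for 2, Jag1 and Jag2, both higher, without DOX/IgG1 replicate 1, against 1789 of 13664 genes in that fit. For DOX/anti-PD-1 versus anti-PD-1 it was found for 2, Jag1 and Notch1, both higher, against 8.63% (6.3% and 2.33%). For anti-PD-1 versus IgG1 it was found for 2, Notch1 and Notch2, both lower, against 4.6% (1.75% and 2.85%), and for DOX/anti-PD-1 versus DOX/IgG1 for 2, Dll1 and Hes1, both lower, against 4.7% (1.81% and 2.89%). In the doxorubicin average it was 2, Jag1 and Notch1, both higher, against 12% (8.82% and 3.16%), in the anti-PD-1 average 3, Hes1, Notch1 and Notch2, all lower, against 4.69% (1.78% and 2.91%), and in the interaction 1, Hes1, below 0, against 4.71% (2.26% and 2.45%). Without DOX/IgG1 replicate 1 the 2 genes of the doxorubicin average were Jag1 and Jag2, against 2163 of 14626 genes. The count of 3 in the anti-PD-1 average was 1, Notch2, without DOX/IgG1 replicate 1, against 914 of 14626 genes, and between 0 and 2 on leaving out any 1 tumor. Leaving out 1 tumor also brought the counts of DOX/anti-PD-1 versus anti-PD-1, anti-PD-1 versus IgG1 and the doxorubicin average to 0 at the lowest, and the first of these to 4 at the highest.

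Dll1, a Delta-type ligand, was the most abundant ligand gene in every tumor. It had 64.6, 68.4 and 73.8 TPM with IgG1, 43.1, 74.3 and 111 TPM with anti-PD-1, 73.4, 88.8 and 82.95 TPM with DOX/IgG1 and 32.1, 36.1 and 76 TPM with DOX/anti-PD-1. The lowest pair of all 12 values belonged to DOX/anti-PD-1 tumors, but the third tumor of that group lay inside the ranges of anti-PD-1 and DOX/IgG1 and above all IgG1 tumors. For DOX/anti-PD-1 versus DOX/IgG1 the log2 fold change was -0.86 (standard error 0.34, limma adjusted p = 0.988), lower in the mean with 1 DOX/anti-PD-1 tumor inside the range of DOX/IgG1 (exact permutation test, two-sided p = 0.2, where 3 tumors against 3 cannot go below 0.1).

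Dll4, the Delta-type ligand of endothelial cells, was the least abundant of the 10 genes. Its values were 4.53, 3.33 and 2.30 TPM with IgG1, 2.14, 4.27 and 6.50 TPM with anti-PD-1, 10.6, 7.27 and 2.91 TPM with DOX/IgG1 and 6.35, 6.23 and 0.89 TPM with DOX/anti-PD-1. All groups overlapped, and the tumors with the highest and the lowest value were both doxorubicin-treated. The 14 endothelial markers summed to 182, 174 and 276 TPM with IgG1, 179, 149 and 155 TPM with anti-PD-1, 199.7, 309.7 and 178 TPM with DOX/IgG1 and 243, 251 and 190.2 TPM with DOX/anti-PD-1. None of them was at 0 in all tumors, and Pecam1 was the most abundant, with a mean of 37.9 TPM.

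Jag1, a Jagged-type ligand, had 13.86, 13.04 and 16.71 TPM with IgG1, 15.1, 12.4 and 11.2 TPM with anti-PD-1, 8.64, 23.1 and 39.25 TPM with DOX/IgG1 and 21.8, 22.0 and 24.9 TPM with DOX/anti-PD-1. With the exception of DOX/IgG1 replicate 1, every tumor with doxorubicin lay above every tumor without it. The average log2 fold change for doxorubicin was 0.62 (standard error 0.29, limma adjusted p = 0.408, exact permutation within each antibody p = 0.075, smallest possible 0.005). Without DOX/IgG1 replicate 1 it was 0.89 (standard error 0.20), and the limma adjusted p was 0.0651, below the limit of 0.1, while the size remained below the limit of 1. In that fit 297 genes had an adjusted p below 0.1. On leaving out any 1 tumor the doxorubicin average of Jag1 lay between 0.43 and 0.89. For DOX/anti-PD-1 versus anti-PD-1, which does not include that library, Jag1 differed by 0.79 (standard error 0.27, limma adjusted p = 0.504) and the groups did not overlap.

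Jag2, the other Jagged-type ligand, had 5.46, 2.69 and 5.81 TPM with IgG1, 3.94, 3.03 and 2.05 TPM with anti-PD-1, 3.28, 10.5 and 10.3 TPM with DOX/IgG1 and 3.16, 8.91 and 5.32 TPM with DOX/anti-PD-1. The 3 highest values were doxorubicin-treated tumors, yet each doxorubicin group had a tumor inside the range of the tumors without it. The average log2 fold change for doxorubicin was 0.65 (standard error 0.34, limma adjusted p = 0.469), and 0.86 (standard error 0.31, adjusted p = 0.200) without DOX/IgG1 replicate 1.

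The summed level of the ligand genes averaged 91.5 ± 6.19 TPM (SD, n = 3) in IgG1, 96.4 ± 33.3 in anti-PD-1, 120.3 ± 21.3 in DOX/IgG1 and 81.3 ± 23.0 in DOX/anti-PD-1 tumors. Dll1 made up between 49.3% and 84.9% of this sum. Its share averaged 75.4% ± 2.63 with IgG1, 77.0% ± 9.11 with anti-PD-1, 68.8% ± 7.65 with DOX/IgG1 and 57.0% ± 12.1 with DOX/anti-PD-1 (SD, n = 3), where replicate 3 had 70.9%. That of Jag1 averaged 15.8% ± 1.03, 15.1% ± 7.66, 18.6% ± 10.0 and 29.2% ± 5.58 in the same order. These shares are a description and were not tested.

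**Figure D2:**
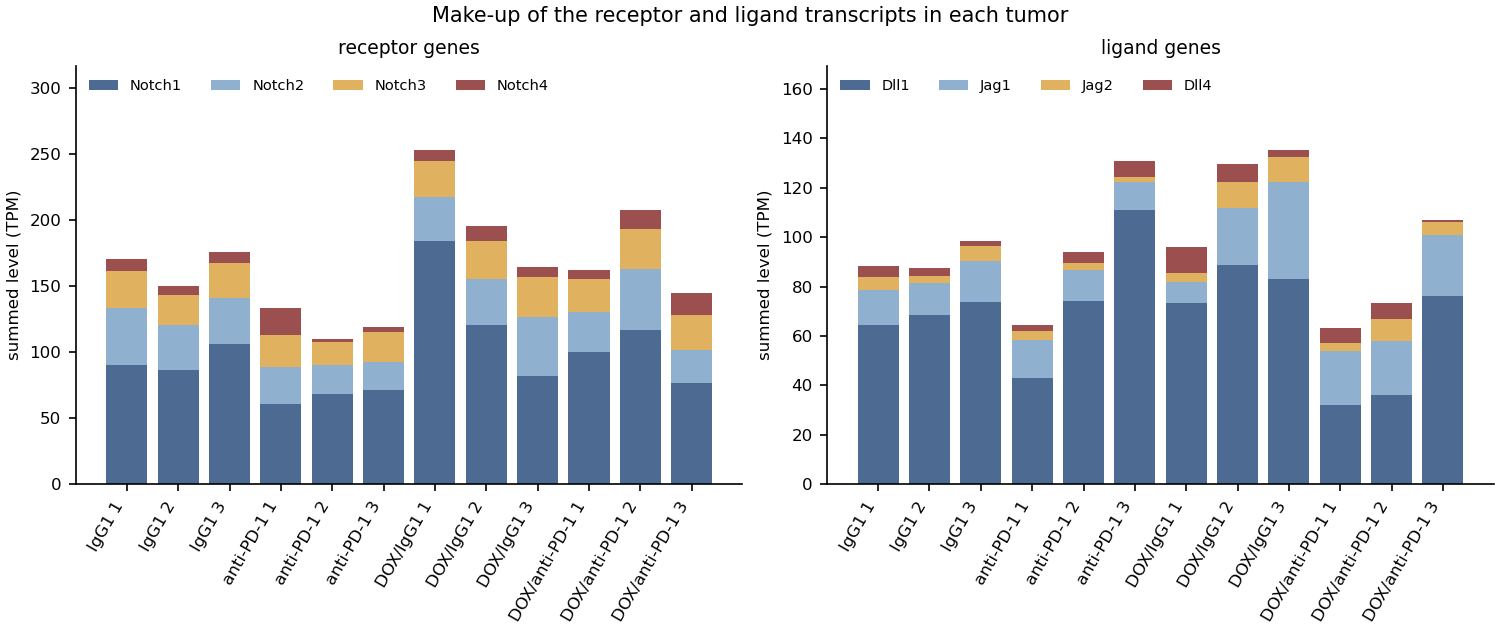
Summed level in TPM (y axis, from 0) of the 4 receptor genes (left) and the 4 ligand genes (right) in each of 12 tumors, with the part of each gene stacked. Notch1 and Dll1 are the largest part in every tumor, and the receptor sums of the 3 anti-PD-1 tumors (110.1 to 133 TPM) are the lowest.

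Notch1, a receptor with a part in luminal progenitor cells, had 90.4, 86.4 and 106 TPM with IgG1, 60.6, 68.0 and 71.35 TPM with anti-PD-1, 184, 120.2 and 81.65 TPM with DOX/IgG1 and 100.2, 117 and 76.6 TPM with DOX/anti-PD-1. The 3 anti-PD-1 tumors held the 3 lowest of all 12 values, so that they lay below the IgG1 tumors on one side and below the DOX/anti-PD-1 tumors on the other. Against IgG1 the log2 fold change was -0.49 (standard error 0.22, limma adjusted p = 0.996), and DOX/anti-PD-1 differed from anti-PD-1 by 0.53 (standard error 0.23, adjusted p = 0.571). Each gave the smallest possible exact permutation p of 0.1. Both comparisons use the same 3 anti-PD-1 tumors, so their values are tied to each other. The doxorubicin average was 0.45 (standard error 0.19, limma adjusted p = 0.362), and 0.33 (standard error 0.18) without DOX/IgG1 replicate 1. For DOX/IgG1 versus IgG1 it was 0.37 with and 0.08 without that tumor.

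Notch2, the second most abundant receptor, had 43.1, 34.4 and 34.5 TPM with IgG1, 27.95, 22.4 and 21.2 TPM with anti-PD-1, 33.4, 35.2 and 45.1 TPM with DOX/IgG1 and 30.5, 45.9 and 25.1 TPM with DOX/anti-PD-1. The anti-PD-1 tumors lay below all IgG1 and all DOX/IgG1 tumors, while DOX/anti-PD-1 overlapped every group. The log2 fold change of anti-PD-1 versus IgG1 was -0.63 (standard error 0.25, limma adjusted p = 0.996, exact permutation p = 0.1). Between these groups 2 of 10 Notch genes, Notch1 and Notch2, did not overlap and were lower with anti-PD-1, against 6.24% of all genes, and 0 were higher, against 3.64%.

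Notch3, the receptor of pericytes and vascular smooth muscle, had 27.6, 22.3 and 26.8 TPM with IgG1, 24.6, 17.2 and 23.0 TPM with anti-PD-1, 27.2, 28.5 and 30.2 TPM with DOX/IgG1 and 24.95, 30.4 and 26.0 TPM with DOX/anti-PD-1. The DOX/anti-PD-1 tumors lay just above the anti-PD-1 tumors. The doxorubicin average was 0.24 in log2 units (standard error 0.16, limma adjusted p = 0.583), with an exact permutation p of 0.01 in 1 test over both antibodies, in which tumors were permuted within their antibody. It was the lowest exact p of any Notch gene, before 0.04 for Notch1, and was not corrected for the number of tests. The median of all genes in this average was 0.12. The 11 pericyte and smooth muscle markers, led by Acta2, summed to 609, 302 and 525 TPM in IgG1, 319, 433 and 488 TPM in anti-PD-1, 401, 948 and 1323.5 TPM in DOX/IgG1 and 645, 571 and 971 TPM with DOX/anti-PD-1. None of them was at 0 in all tumors. These markers did not move together, and 8 of 11 had a log2 fold change above 0 in the doxorubicin average. Acta2 averaged 271 TPM with and 142 TPM without doxorubicin. Rgs5 averaged 32.6 and 33.2 TPM, Kcnj8 2.52 and 3.98 TPM and Abcc9 8.40 and 12.3 TPM in the same order. The sum therefore does not stand for pericytes alone, and the part of these markers in the values of Notch3 was not tested.

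Notch4, the receptor of endothelial cells, had 8.99, 7.08 and 7.98 TPM with IgG1, 19.85, 2.46 and 3.75 TPM with anti-PD-1, 8.64, 11.5 and 7.08 TPM with DOX/IgG1 and 6.35, 14.5 and 16.9 TPM with DOX/anti-PD-1. The anti-PD-1 group held both the highest and the lowest value of all tumors, so the group mean of 8.69 ± 9.69 TPM (SD, n = 3) lies far from each of its tumors. The doxorubicin average was 0.50 (standard error 0.40, limma adjusted p = 0.657), and between 0.23 and 0.81 on leaving out 1 tumor.

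The receptor genes summed to 165 ± 13.4 TPM (SD, n = 3) with IgG1, 121 ± 11.5 with anti-PD-1, 204 ± 45.2 with DOX/IgG1 and 171 ± 32.7 with DOX/anti-PD-1. Notch1 made up between 45.6% and 72.6% of the sum, with the highest share in DOX/IgG1 replicate 1. The plot of receptor and ligand make-up shows these sums tumor by tumor.

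Hes1, a transcriptional repressor and direct target of Notch, had 27.5, 18.4 and 24.1 TPM with IgG1, 20.25, 19.0 and 33.0 TPM with anti-PD-1, 52.7, 28.5 and 32.3 TPM with DOX/IgG1 and 12.87, 17.67 and 12.85 TPM with DOX/anti-PD-1. All DOX/anti-PD-1 tumors lay below all other tumors, which holds for 1 of 10 Notch genes and for 0.251% of all genes tested (0.699% had all 3 above the other 9). All DOX/IgG1 tumors lay above all IgG1 tumors, by 0.64 in log2 units (standard error 0.32), and 0.38 (standard error 0.30) without DOX/IgG1 replicate 1. Opposite signs of the doxorubicin difference with IgG1 and with anti-PD-1 were found for 4 of 10 Notch genes (Dll1, Dll4, Hes1 and Hey1), against 41.1% of all genes, and for 1 of 10, Hes1, without overlap on either side, against 0.314%. The shares of opposite signs were added after the values of Hes1 were seen, so they are a description and not a test. Without DOX/IgG1 replicate 1 the signs of Hey1 agreed (0.35 with IgG1). The sign of Dll4 with anti-PD-1 also rested on single tumors (-0.44 to 0.55 on leaving out 1). For Hes1 the log2 fold change of DOX/anti-PD-1 versus DOX/IgG1 was -1.29 (standard error 0.33, limma adjusted p = 0.988, exact permutation p = 0.1), and -1.03 (standard error 0.32, adjusted p = 0.521) without DOX/IgG1 replicate 1. With doxorubicin, Hes1 was thus lower in the mean with anti-PD-1, whereas without doxorubicin the log2 fold change of anti-PD-1 versus IgG1 was 0.02 (standard error 0.30). The interaction was -1.31 (standard error 0.44, limma adjusted p = 0.993), and -1.05 (standard error 0.43, adjusted p = 0.714) without DOX/IgG1 replicate 1. None of these passed the limit over all genes.

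Hey1, a repressor of the HEY family, was the most abundant of the 10 genes. Its values were 112, 116 and 90.3 TPM with IgG1, 109.6, 106 and 139.7 TPM with anti-PD-1, 30.1, 159 and 115 TPM with DOX/IgG1 and 189.5, 159.85 and 84.55 TPM with DOX/anti-PD-1. The groups overlapped in every pair, and DOX/IgG1 replicate 1 had less than any other tumor. The log2 fold change of DOX/IgG1 versus IgG1 was -0.36 (standard error 0.53) with that tumor and 0.35 (standard error 0.26) without it, so its direction rested on 1 library. It was 0.73 with and 0.02 without that tumor for DOX/anti-PD-1 versus DOX/IgG1, and in the anti-PD-1 average 0.44 and 0.09. Over the 12 tumors the correlation of Hes1 and Hey1 was r = -0.553 (Spearman's rho = -0.182, n = 12), and r = -0.007 without DOX/IgG1 replicate 1. In DOX/anti-PD-1 tumors the means were 14.5 ± 2.78 and 145 ± 54.1 TPM.

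As a list, 9 of 10 Notch genes had a log2 fold change above 0 for DOX/IgG1 versus IgG1, with a median of 0.31 over the list and 0.12 over all genes, of which 60.6% were above 0 (0.02 and 51.8% without IgG1 replicate 1). For DOX/anti-PD-1 versus anti-PD-1 it was 7 of 10, with medians of 0.39 and 0.11 and 60% of all genes above 0. In the doxorubicin average it was also 7 of 10, with medians of 0.28 and 0.12 and 63.3% of all genes above 0. Scaling tumors by the median of ratios removes this shift by construction, with 50.7% of all genes and again 7 of 10 Notch genes above 0. Relative to the median of all genes, 7 of 10 were higher in the doxorubicin average (50% of all genes by definition), the 4 receptors with Jag1, Jag2 and Dll4. Between anti-PD-1 and IgG1 4 of 10 were above 0 (medians -0.20 and -0.03, 47.2% of all genes), for DOX/anti-PD-1 versus DOX/IgG1 3 of 10 (medians -0.26 and -0.04, 46.3%), and in the anti-PD-1 average 2 of 10 (medians -0.31 and -0.03, 45.6%). In the interaction 7 of 10 were above 0 (medians 0.16 and -0.01, 49.4%), but 4 of 10 without DOX/IgG1 replicate 1. In the anti-PD-1 average 1 of 10 was above 0 without that tumor. These counts depended on single tumors, as between anti-PD-1 and IgG1, where leaving out 1 tumor gave 1 to 5 of 10.

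Groups without overlap were also counted in the remaining comparisons. For DOX/IgG1 versus IgG1, 1 of 10 Notch genes (Hes1) did not overlap and was higher, against 9.31% of all genes, and 0 were lower, against 4.64%. Without DOX/IgG1 replicate 1, Dll1, Jag1, Jag2 and Notch3 were also higher without overlap. For DOX/anti-PD-1 versus anti-PD-1, 3 of 10 (Jag1, Notch1 and Notch3) were higher without overlap, against 11.1%, and 1 (Hes1) was lower, against 3.84%. For DOX/anti-PD-1 versus DOX/IgG1, 0 were higher, against 4.27%, and 1 (Hes1) was lower, against 5.95%. Here Dll1 and Jag2 were also lower without overlap when DOX/IgG1 replicate 1 was left out. In the averages, all 6 tumors of one side lay beyond all 6 of the other for 0 Notch genes, against 0.597% of all genes higher and 0.122% lower with doxorubicin, and 0.0882% and 0.115% with anti-PD-1. For Jag1 the doxorubicin sides did not overlap once DOX/IgG1 replicate 1 was left out. The share of all genes without overlap was not counted without DOX/IgG1 replicate 1. A smaller group separates more easily, so the genes named without that tumor cannot be set against the shares above. With 10 genes these counts are a description.

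**Figure D3:**
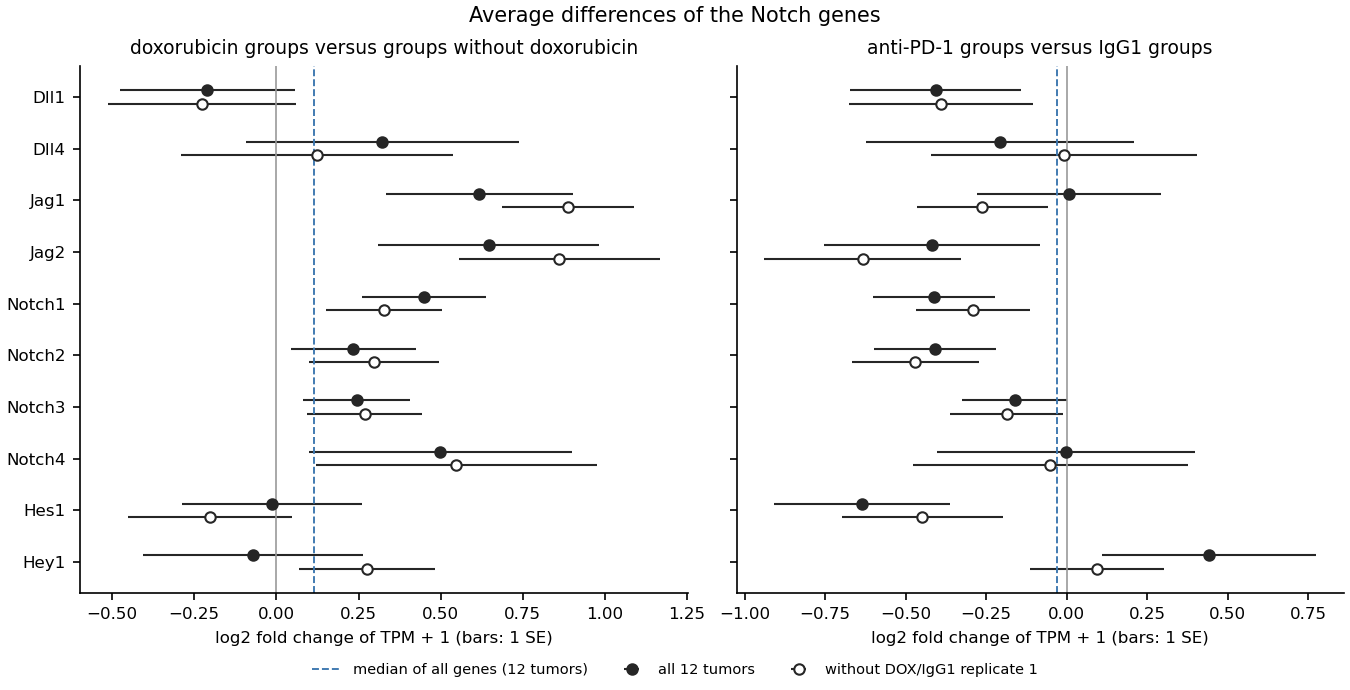
Log2 fold change of TPM + 1 (x axis) of the 10 Notch genes for the average of doxorubicin (left) and of anti-PD-1 (right), with bars of 1 standard error, for all 12 tumors (filled) and without DOX/IgG1 replicate 1 (open). The dashed line marks the median of all genes, 0.12 on the left and -0.03 on the right. Jag1 moved from 0.62 to 0.89 on the left and Hey1 from -0.07 to 0.28 when that tumor was left out.

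Other genes of the pathway were followed in 5 lists with 55 genes, of which 51 passed the minimum over the 12 tumors. None was called in the comparisons of all tumors, and in the doxorubicin average 9 of 51 were higher and 1 lower at an unadjusted p below 0.05, against 8.82% and 3.16% of all genes. The higher genes were Ccnd1, Cdkn1a, Dtx3, Dtx4, Maml2, Nrarp, Poglut1, Psen2 and Spen, and the lower gene was Furin. Whether Notch signaling had a part in these differences was not tested. The gene with the smallest p was Poglut1 among 9 genes of ligand handling and receptor glycosylation, Psen2 among 10 of receptor cleavage, Maml2 among 16 of the nuclear complex and its corepressors, Dtx4 among 11 of inhibitors and turnover and Nrarp among 9 other targets. They were chosen for that p, so their values are a description.

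Nrarp, a target gene whose product restrains Notch signaling, had 2.41, 0 and 0 TPM with IgG1 and 0, 4.55 and 2.04 TPM with anti-PD-1, and it had 6.94, 4.49 and 3.66 TPM with DOX/IgG1 and 5.01, 5.53 and 6.49 TPM with DOX/anti-PD-1. With doxorubicin 4 of 6 tumors lay above the highest tumor without it, and within each antibody the groups did not overlap. The average log2 fold change was 1.67 (standard error 0.44, limma adjusted p = 0.206). Psen2, a catalytic subunit of gamma-secretase, averaged 32.4 ± 7.33 TPM (SD, n = 6) with and 16.8 ± 8.15 TPM without doxorubicin, which differed by 0.98 in log2 units (standard error 0.26, limma adjusted p = 0.206). Without DOX/IgG1 replicate 1 it was 1.06 (standard error 0.27, limma adjusted p = 0.0927) and passed both limits. In that fit 211 of 14626 genes passed both, and 297 had an adjusted p below 0.1. Psen2 had 32.3 TPM in IgG1 replicate 1, inside the range of the tumors with doxorubicin. With all tumors, DOX/IgG1 differed from IgG1 by 0.68 with overlap, and DOX/anti-PD-1 from anti-PD-1 by 1.29 without overlap.

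Dtx4, a Deltex-type ubiquitin ligase that acts on Notch receptors, averaged 13.9 ± 4.54 TPM with and 7.045 ± 2.49 TPM without doxorubicin (SD, n = 6), which differed by 0.88 in log2 units (standard error 0.24, limma adjusted p = 0.206), and 0.95 (adjusted p = 0.0922) without DOX/IgG1 replicate 1, below the limit in size. Maml2, a coactivator of the RBPJ complex, differed by 0.71 (standard error 0.25) and Poglut1, which adds glucose to Notch receptors, by 0.47 (standard error 0.20). The most abundant genes of the lists, with the doxorubicin average, were Mib1 (mean 93.1 TPM, log2 fold change -0.17), a ubiquitin ligase of ligand-sending cells, the receptor protease gene Adam10 (183 TPM, -0.10), the corepressor gene Ncor1 (311 TPM, -0.21), the inhibitor gene Numb (151 TPM, 0.14) and the luminal transcription factor gene Gata3 (149 TPM, 0.01). Gata3 had 26.4 TPM in DOX/IgG1 replicate 1 and 97.1 TPM or more elsewhere, and its log2 fold change was 0.50 without that tumor.

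**Figure D4:**
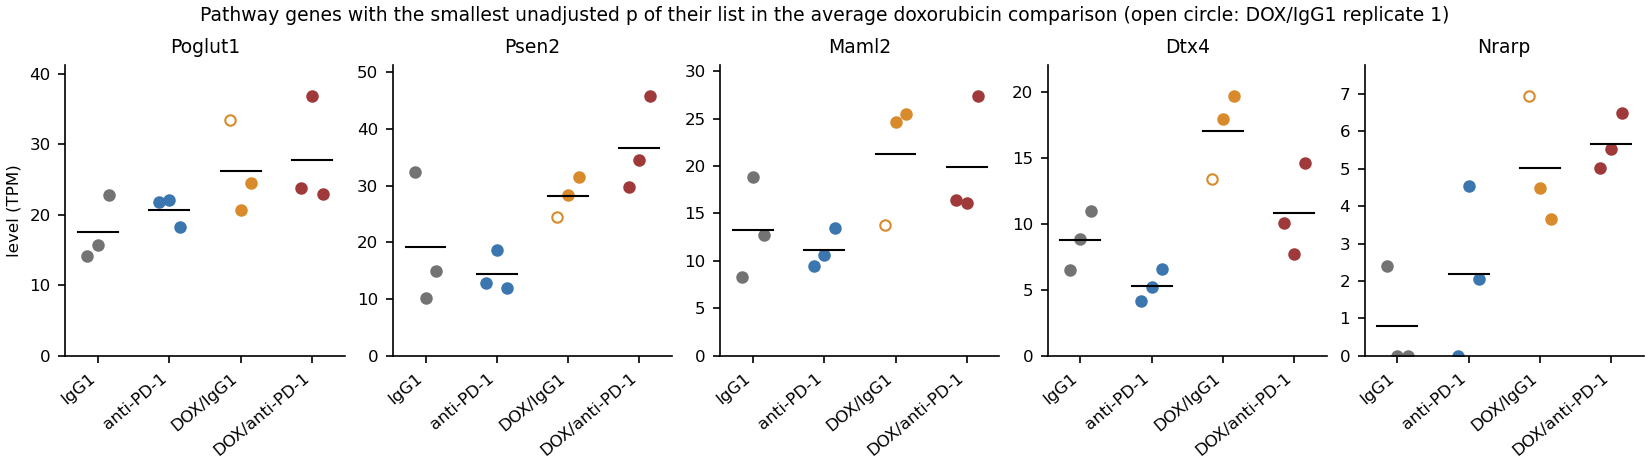
Level in TPM (y axis, linear, from 0) in each of 12 tumors by group of the 5 pathway genes with the smallest unadjusted p of their list in the doxorubicin average, with lines at group means and an open circle for DOX/IgG1 replicate 1. Nrarp was at 0 in 3 tumors without doxorubicin and between 3.66 and 6.94 TPM in all 6 tumors with it.

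Sequence upstream of the start sites is shown for 3 of these genes, to set beside their values the letters that HES, HEY and RBPJ proteins are known to bind. RefSeq promoter entries (GRCm38.p6) were found for 8 of the 10 Notch genes, in 9 windows of 250 bases before a start, and none was found for Hes1 and Hey1. Some of these windows overlap the annotated gene, as those of Notch2 and Jag1 and that of Notch1 (26503823 to 26504072), which lies inside it. The windows printed below for Dll1, Dll4 and Nrarp lie outside their genes. The RBPJ motif TGGGAA was searched on both strands together with the E-box CACGTG and the HES and HEY site CACGCG. The first, TGGGAA, was in 0 of the 9 windows and in 21.6% of 32851 windows of this length, CACGTG in 0 of 9 and in 6.02%, and CACGCG in 4 of 9 (Dll1, Dll4, Jag1 and Notch2) and in 7.62%. Among the other pathway genes, only the most abundant gene and the gene with the smallest p of each list were searched. CACGTG was found before a start of Adam10, Psen2 and Nrarp, and TGGGAA before one of Poglut1, Psen2, Ncor1 and Maml2. The GC content of the 9 windows ranged from 56% to 87.2%. The shares over all windows were not matched for GC content, so the counts are not a test of enrichment. A match is a description of letters, not a binding site. Dll1 lies at chr17:15376933-15377182 on the minus strand and Dll4 at chr2:119325534-119325783 on the plus strand, both with CACGCG in capitals, and Nrarp at chr2:25180508-25180757 on the plus strand with CACGTG in capitals.
Dll1: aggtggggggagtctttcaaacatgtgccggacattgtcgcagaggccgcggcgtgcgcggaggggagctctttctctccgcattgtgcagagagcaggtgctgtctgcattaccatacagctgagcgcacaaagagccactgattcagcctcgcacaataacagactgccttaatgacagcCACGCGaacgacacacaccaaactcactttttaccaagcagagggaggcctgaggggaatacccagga
Dll4: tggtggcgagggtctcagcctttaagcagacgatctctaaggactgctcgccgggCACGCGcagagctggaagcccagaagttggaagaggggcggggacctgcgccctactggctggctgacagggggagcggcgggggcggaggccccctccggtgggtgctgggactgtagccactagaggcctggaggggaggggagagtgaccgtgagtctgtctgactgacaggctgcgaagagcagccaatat
Nrarp: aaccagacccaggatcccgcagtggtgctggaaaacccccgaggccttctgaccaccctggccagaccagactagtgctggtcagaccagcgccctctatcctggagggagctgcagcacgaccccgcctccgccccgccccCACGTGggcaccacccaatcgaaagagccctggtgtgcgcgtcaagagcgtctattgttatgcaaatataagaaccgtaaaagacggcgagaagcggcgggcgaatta
The window of Dll1 is the outer of 2 in the table, and the match starts at base 183. In Dll4 it starts at base 56 and in Nrarp at base 143.

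By GENCODE vM21 on GRCm38, the genes lie on chromosomes 2 (Notch1, ENSMUSG00000026923, 26457903 to 26516663; Dll4, ENSMUSG00000027314; Jag1, ENSMUSG00000027276, 137081456 to 137116644), 3 (Notch2, ENSMUSG00000027878; Hey1, ENSMUSG00000040289), 12 (Jag2, ENSMUSG00000002799), 16 (Hes1, ENSMUSG00000022528, 30064384 to 30067796) and 17 (Dll1, ENSMUSG00000014773, 15367354 to 15376872; Notch3, ENSMUSG00000038146; Notch4, ENSMUSG00000015468). Jag1, Hes1 and Hey1 overlap no other annotated gene. Notch1, Notch3, Notch4, Dll1 and Dll4 each overlap a gene on the opposite strand that is not among the listed genes. On the same strand, Notch1 and Jag2 each hold a microRNA gene and Notch2 holds 2 other annotated genes, none of them listed, and reads from these cannot be told apart by strand. The libraries were made with a stranded kit, but the strand setting of the counting is not given in the sources used here, so reads of opposite-strand partners cannot be told apart from those of the Notch gene.

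The genes most like each Notch gene over the 12 tumors were ranked by Pearson's r of log2(TPM + 1) among 11301 genes with a mean of at least 5 TPM, and no p is given because they were picked as the highest. For Dll1 they were Rgs9 (r = 0.926, Spearman's rho = 0.937), Acer3 and Zc2hc1a, for Dll4 Gpi1 (0.904 and 0.909), Tmem237 and Zfp111, for Jag1 Spock2 (0.946 and 0.979), Hdac7 and Id4, and for Jag2 Fbln1 (0.895 and 0.958), Slc43a3 and Ampd3. For Notch1 they were Fads3 (0.909 and 0.795), Hbb-bt and Trim47, for Notch2 Dcp1b (0.928 and 0.921), Evc2 and Uap1, for Notch3 Nfatc2 (0.879 and 0.818), Rundc1 and Arhgap1, and for Notch4 Pgs1 (0.880 and 0.771), Vars and Rasa4. For Hes1 they were Gm2a (0.932 and 0.930), Stam2 and Cxcl16, and for Hey1 Iqsec1 (0.913 and 0.783), Pole3 and Mgst3. Over all 12 tumors no Notch gene was among the 3 nearest of another, but without DOX/IgG1 replicate 1 Dll4 and Hey1 had r = 0.867 (-0.046 with it). Without DOX/IgG1 replicate 1, r was lower by the most for Hey1, with Iqsec1 at 0.762 and Mgst3 at 0.597, while Jag1 and Spock2 stayed at 0.929.

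Markers of other cell types also differed between tumors. The 6 listed of 7 salivary gland markers summed to 60.1, 97.98 and 118 TPM with DOX/IgG1 and to between 5.40 and 25.4 TPM in the other 9, with Amy1 the most abundant on average. The 7 adipocyte markers, led by Cfd, summed to 866 TPM in DOX/IgG1 replicate 2 and 830.2 TPM in DOX/anti-PD-1 replicate 1 and to at most 330.3 TPM elsewhere. The 7 skeletal muscle markers, led by Acta1, ranged from 0.27 to 732 TPM without regard to group. Mean sums per group, from IgG1 to anti-PD-1, then DOX/IgG1, then DOX/anti-PD-1, were 2105, 1305, 1578 and 1892 TPM for 9 fibroblast markers (led by Postn), 4473, 3589.7, 4328 and 3733 TPM for the luminal markers, and 119.6, 95.5, 168 and 137 TPM for 6 basal markers (led by Oxtr). They were 338, 290.1, 383 and 343 TPM for 7 macrophage markers (led by C1qa) and 15.6, 10.5, 32.8 and 22.0 TPM for the 6 listed of 7 T cell markers (led by Cd3e). The luminal markers did not move together. Epcam averaged 912, 793, 502 and 707 TPM in the same order, and 4 of 10 luminal markers had a log2 fold change above 0 in the doxorubicin average. The part of all these markers in the levels of the Notch genes was not tested.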

How the data were processed

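RNA of 12 whole tumors was sequenced. The paper's description of the sequencing does not give the number of mice. Per the labels, the authors used STAR for alignment to mm10 and RSEM for gene levels, and the authors deposited log2(TPM + 1), which was turned back into TPM. Groups came from the labels. The 10 genes and all lists were chosen with earlier results of these data known. limma 3.58.1 (R 4.3.3; lmFit, eBayes with trend, two-sided, Benjamini-Hochberg over all genes) was run on log2(TPM + 1) for genes with at least 1 TPM in 3 tumors. Exact permutation tests used scripts in Python 3.11.15. The script was tested on simulated data. Beside the 10 genes, the text names from each pathway list the most abundant gene, the gene with the smallest p in the doxorubicin average and called genes, the most abundant gene of each marker list and the 3 genes most correlated with each Notch gene. It also names the pathway genes at an unadjusted limma p below 0.05 in that average. The markers Rgs5, Kcnj8 and Abcc9 were picked after their values were seen. Alternatives were another pseudocount, other minimums, median of ratios scaling, a replicate block, a fit on all tumors and leaving out each tumor. The shares of genes with opposite signs were added after the values of Hes1 were seen.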

Additional observations from a re-analysis of the deposited data

Results flagged for a closer look

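Hes1 was singled out because its doxorubicin difference had opposite signs with the 2 antibodies and the groups did not overlap with either, as for 1 of 10 Notch genes and 0.314% of all genes. Since Hes1 was picked by this same pattern and the share was added after its values were seen, the share is a description and not a test. Opposite signs alone were also found for Dll1 (0.24 and -0.66), Dll4 (0.75 and -0.10) and Hey1 (-0.36 and 0.22), where groups overlapped. Without DOX/IgG1 replicate 1 the first value of Hey1 was 0.35, so that its signs agreed. The second value of Dll4 lay between -0.44 and 0.55 on leaving out 1 tumor. Over all genes the share with opposite signs was 41.1%, and 4 of 10 Notch genes had them with all tumors included. All 3 DOX/IgG1 tumors lay above all 3 IgG1 tumors, with a log2 fold change of 0.64 (0.38 without DOX/IgG1 replicate 1), and all 3 DOX/anti-PD-1 tumors lay below all 3 anti-PD-1 tumors, with a log2 fold change of -0.67 (between -0.81 and -0.43 on leaving out 1 tumor). The difference itself was -1.31 in the limma interaction test, where its adjusted p of 0.993 over 14735 genes did not pass. It stayed between -1.49 and -1.05 when each tumor was left out in turn. The salivary gland markers also set the DOX/IgG1 tumors apart, with sums of 60.1, 97.98 and 118 TPM against at most 25.4 TPM elsewhere. Of 4 tested, 1 was called in the interaction with all tumors, against 1 of 14735 genes. In DOX/IgG1 versus IgG1, 2 of 4 tested salivary gland markers were called, against 5 of 13874 genes. Their part in the values of Hes1 was not tested.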

How the results depend on the processing

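No Notch gene was called under any alternative, and 37 of 833 log2 fold changes of Notch genes changed sign, 35 of them on leaving out 1 tumor. This tally covers the 10 genes in 6 comparisons and, for the interaction, Hes1 only. In the interaction Jag1 (0.34 to -0.22), Jag2 (0.11 to -0.36) and Hey1 (0.58 to -0.13) also changed sign without DOX/IgG1 replicate 1. Under median of ratios scaling Notch2 was at -0.10 in DOX/IgG1 versus IgG1 (0.02 before) and Notch4 at 0.021 in the anti-PD-1 average (-0.002 before). Leaving out each tumor in turn, which leaves groups of 2, moved the log2 fold change in DOX/IgG1 versus IgG1 between -0.11 and 0.12 for Notch2, -0.025 and 0.29 for Notch4, -0.020 and 1.01 for Jag1 and -0.83 and 0.35 for Hey1. In DOX/anti-PD-1 versus anti-PD-1 it moved between -0.44 and 0.55 for Dll4 and -0.017 and 0.56 for Hey1, in anti-PD-1 versus IgG1 between -1.15 and 0.15 for Notch4, -0.28 and 0.40 for Dll1, -0.077 and 0.55 for Dll4 and -0.22 and 0.16 for Hes1, and in DOX/anti-PD-1 versus DOX/IgG1 between -0.385 and 0.65 for Jag1 and -1.07 and 0.017 for Dll4. In the doxorubicin average it moved between -0.20 and 0.17 for Hes1, -0.25 and 0.28 for Hey1 and -0.18 and 0.50 for Gata3, and in the anti-PD-1 average between -0.31 and 0.26 for Notch4, -0.26 and 0.20 for Jag1 and -0.39 and 0.13 for Dll4. The number of Notch genes above 0 ranged from 7 to 10 in DOX/IgG1 versus IgG1, 6 to 8 in DOX/anti-PD-1 versus anti-PD-1, 1 to 5 in anti-PD-1 versus IgG1, 2 to 4 in DOX/anti-PD-1 versus DOX/IgG1, 7 to 9 in the doxorubicin average, 1 to 3 in the anti-PD-1 average and 4 to 7 in the interaction, and the number at an unadjusted limma p below 0.05 from 0 to 2, 0 to 4, 0 to 2, 1 to 2, 0 to 2, 0 to 2 and 1 to 3. With no change of sign, other values also moved widely, among them Dll4 from 0.41 to 1.19 and Notch1 from 0.08 to 0.66 in DOX/IgG1 versus IgG1, Notch4 from 0.35 to 1.65 and Dll1 from -1.04 to -0.34 in DOX/anti-PD-1 versus anti-PD-1, and Hey1 from 0.02 to 1.20 in DOX/anti-PD-1 versus DOX/IgG1. Over all genes, the calls ranged from 0 to 113 in DOX/IgG1 versus IgG1, 0 to 4 in DOX/anti-PD-1 versus anti-PD-1, 0 to 4 in anti-PD-1 versus IgG1, 0 to 3 in DOX/anti-PD-1 versus DOX/IgG1, 0 to 211 in the doxorubicin average and 0 to 1 in the interaction. The largest counts in DOX/IgG1 versus IgG1 and the doxorubicin average came without DOX/IgG1 replicate 1, and the cause was not tested. With the replicate number as a block the calls were 2 in DOX/IgG1 versus IgG1 (5 before), 1 in the doxorubicin average (3 before) and 0 in the interaction (1 before). The labels name no pairing, and 6 of 12 comparisons of same-numbered tumors were not the best match (r of deviations -0.081 to 0.13). DOX/anti-PD-1 versus DOX/IgG1 had 3 calls under median of ratios scaling and 2 in a fit on all 12 tumors (0 before). The doxorubicin average had 13 calls with a minimum of 5 TPM and 14 under median of ratios scaling. The interaction had 0 with a pseudocount of 0.1, 3 without a minimum, 0 with a minimum of 5 TPM and 0 under median of ratios scaling. Under that scaling 1 of 40 group means of Notch genes moved by more than 1 SD, Notch3 in DOX/IgG1 from 28.6 to 26.8 TPM.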
